A study of Homo sapiens with 10 samples.

Results

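WT1 was followed row by row in SW620 colon cancer cells and in derivatives of that line selected in mice. SW620 is an established human line grown from a lymph node metastasis of a colon carcinoma. The samples are 3 arrays of lung metastasis derivatives, 3 arrays of liver metastasis derivatives and 4 arrays of the parental line, and the labels name no genetic change or drug in any group. The derivatives were metastases taken from balb/c nude mice, which lack mature T cells but keep other immune cells, and were grown on in culture before RNA was extracted. Every array also carries the label balb/c, the parental arrays included. Replicates are called biological in the labels, but from how many metastases or cultures they came is not stated, so the tests measure the spread between these samples only.

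The members are all rows whose only listed gene symbol is WT1, taken in order of row identifier. There were 11 such rows among 56949 rows with a listed gene, and 0 rows listed WT1 beside another symbol. A row is taken here as a probe set for a part of the gene, and its place among the exons or isoforms is unknown here. All values are log2 expression values, so a difference of 1 is a change of the fluorescence signal by a factor of 2. WT1 was chosen by its low values on the lung arrays of this set, against the parental arrays. Its lung values are therefore given as a description and support nothing further, while the liver arrays were tested, with the reservation that they are set against the same parental arrays.

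WT1 encodes a zinc-finger transcription factor that is required for the development of the kidney and gonads and stays on in podocytes and mesothelium. It was found as a tumour suppressor gene of Wilms tumour, a childhood kidney cancer, and is also expressed in several adult carcinomas, colorectal carcinoma among them. Alternative splicing gives proteins that differ in an exon ahead of the zinc fingers and in a short insert between the last zinc fingers, the KTS insert, which changes DNA binding. A noncoding RNA, WT1-AS, is transcribed in the opposite direction from the same start region. The window before the main WT1 start is shown because both genes were measured and begin there. It holds the 250 bases before the start on the minus strand (RefSeq, GRCh38.p14, chr11:32435540-32435789), with motif matches in capitals.

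WT1 promoter: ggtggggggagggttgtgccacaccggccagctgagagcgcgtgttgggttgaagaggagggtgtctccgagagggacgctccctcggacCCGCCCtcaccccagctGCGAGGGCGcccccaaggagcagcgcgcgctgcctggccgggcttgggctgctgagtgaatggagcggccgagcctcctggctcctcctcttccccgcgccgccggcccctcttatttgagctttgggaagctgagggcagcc

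The capitals at base 91 are a GC box read on the opposite strand (GGGCGG, the site of SP1-type factors), and those at base 108 match GCGNGGGNG, the form of site bound by EGR factors and by WT1 itself. Both strands were searched and the matches do not overlap each other. Of 35116 RefSeq windows of the same length, 42.6% held the GC box and 17% the EGR/WT1-type site. A TATA box (TATAAA), found in 10.7% of the windows, was not in these letters. The window held 19 CpG dinucleotides against a median of 11, and 34.6% of windows held at least as many. By their first RefSeq starts the WT1 and WT1-AS transcripts overlap by 22 bases.

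Some facts of the whole set bear on every value below. Array medians lay between 8.62 and 8.72, and 0 pairs of arrays held identical values. Parental array 4 stood apart. Across all rows, which are not independent replicates, its correlation was 0.965 to 0.968 with parental arrays 1 to 3. Those 3 correlated among themselves at 0.986 to 0.988. With the lung arrays, parental array 4 correlated at 0.963 to 0.964 and parental arrays 1 to 3 at 0.940 to 0.957. The lung arrays correlated among themselves at 0.966 to 0.968. Each WT1 result is therefore also given without parental array 4, or against it alone. The simple-epithelium keratin KRT8 averaged 12.82 ± 0.10 in lung derivatives, 12.77 ± 0.06 in liver derivatives and 12.75 ± 0.04 in parental cells (SD, n = 3, 3 and 4). Of the 7 measured genes on the colon and simple-epithelium list, RAB25, an epithelial trafficking GTPase, was higher (3.996 in lung and 3.01 in liver derivatives). ELF3 (-0.25 and -0.51) and TSPAN8 (-0.43 and -1.12) were lower. All of these were called by limma, while KRT8, KRT18, MUC2 and CDHR5 were not called. Of all gene means 30.1% were called in lung and 7.83% in liver derivatives against parental cells. In bulk RNA, fewer cells expressing WT1 and less WT1 RNA per cell cannot be told apart.

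Averaged over its 11 rows, WT1 lay lowest in lung derivatives, in the middle in liver derivatives and highest in parental cells. The mean of rows was 7.52, 7.65 and 7.40 on the lung arrays, 8.59, 8.47 and 8.38 on the liver arrays, and 9.34, 9.31, 9.18 and 8.64 on the parental arrays 1 to 4. No array of one group entered the range of another, though parental array 4 lay only just above the highest liver array. Lung derivatives were lower than parental cells by 3.03-fold (log2 difference -1.60, SE 0.15) and liver derivatives by 1.55-fold (-0.64, SE 0.15, limma adjusted p = 0.0219). With the median of rows in place of the mean, the liver difference was -0.42 and was not called (limma adjusted p = 0.066). The lung mean also differed from the liver mean, by -0.96 (SE 0.16). Among 4713 gene means ordered from the largest fall, WT1 stood at place 2 in lung against parental cells and at place 54 in liver against parental cells. Without parental array 4 the differences from parental cells were -1.76 in lung and -0.79 in liver derivatives (limma adjusted p = 0.00018 for liver). Against parental array 4 alone, the lung mean was -1.12. The liver call rested on each of the other 6 arrays it used: leaving out any single one of liver 1 to 3 or parental 1 to 3 gave limma adjusted p-values from 0.0527 to 0.104. In the same fit 17.3% of gene means were called lower in lung and 3.5% in liver derivatives against parental cells, and 19.9% were called in lung against liver derivatives, 11.9% as lower.

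**Figure D1:**
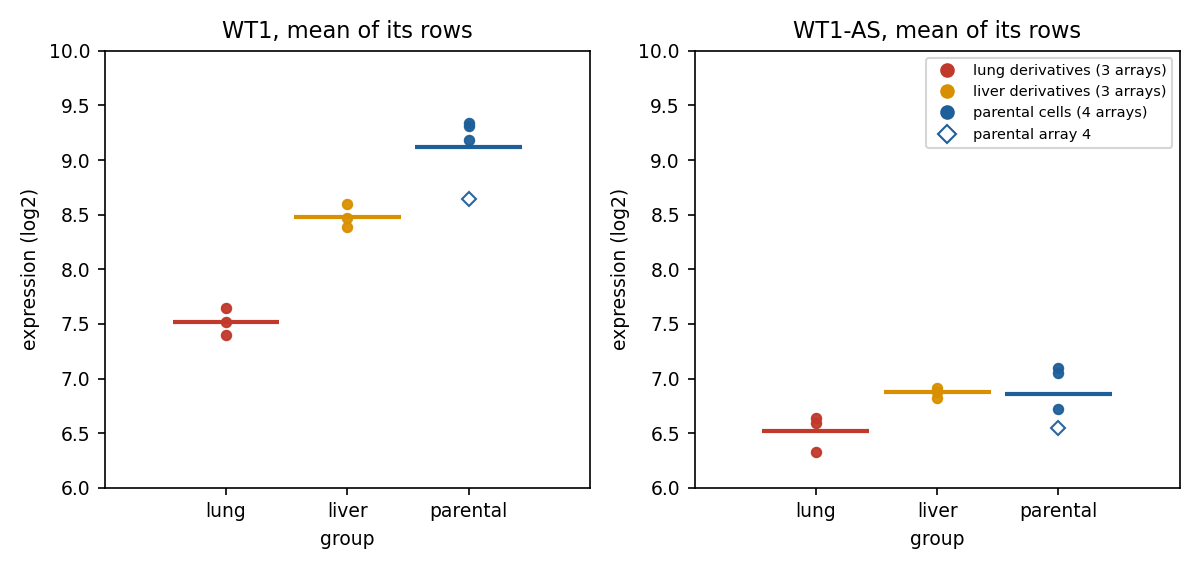
The mean of all rows of WT1 (left) and of the antisense gene WT1-AS (right) on each array, in log2 units, with lung, liver and parental arrays as points, the group mean as a bar and parental array 4 as an open diamond. The WT1 means are 7.52 in lung, 8.48 in liver and 9.12 in parental arrays, without overlap, whereas the groups of WT1-AS overlap with parental cells.

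The 11 rows fell into a large block that was low in lung derivatives and a pair that was not. Row 1 (identifier 7947364) read 7.41, 7.81 and 7.41 on the lung arrays, 8.85, 8.96 and 8.89 on the liver arrays, and 10.20, 9.97, 9.89 and 9.47 on the parental arrays. The 3 groups were fully separate in this row, and the lung mean was 5.05-fold below the parental mean (-2.34, SE 0.17). Row 3 (7947366) showed the widest gap, with 6.58, 6.86 and 7.33 in lung, 9.18, 8.85 and 8.85 in liver and 10.13, 10.14, 9.997 and 9.27 in parental arrays. Its lung mean was 7.78-fold below the parental mean (-2.96, SE 0.25), and its groups did not overlap either.

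Row 4 (7947367) moved less, with 8.46, 8.37 and 8.18 in lung, 8.78, 8.81 and 8.49 in liver and 9.48, 9.61, 9.39 and 9.43 in parental arrays. The lung mean was -1.14 (SE 0.12) from the parental mean, and parental array 4 here lay among the other parental arrays. Row 8 (7947371) moved less still, with 8.68, 8.75 and 8.40 in lung, 9.07, 9.06 and 8.92 in liver and 9.30, 9.30, 9.41 and 9.30 in parental arrays. Its groups were still separate, at a lung difference of -0.72 (SE 0.11). Both rows changed by less than row 1 and row 3, and both had a narrow spread among the parental arrays.

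Row 2 (7947365) read 8.36, 8.53 and 7.85 in lung, 9.15, 8.97 and 8.72 in liver and 10.02, 9.98, 9.77 and 9.45 in parental arrays, a lung difference of -1.56 (SE 0.20). Row 5 (7947368) read 7.61, 7.23 and 7.24 in lung, 9.19, 9.01 and 9.01 in liver and 10.17, 9.95, 9.94 and 9.03 in parental arrays, a lung difference of -2.41 (SE 0.25). Row 7 (7947370) read 6.56, 5.46 and 5.97 in lung, 7.66, 7.61 and 7.52 in liver and 9.05, 8.92, 8.53 and 8.14 in parental arrays, a lung difference of -2.66 (SE 0.27). Every lung array lay below every parental array in all 3 rows, while parental array 4 fell within the liver range in row 5.

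Rows 6 and 9 were low in lung derivatives but overlapped with parental cells. Row 6 (7947369) read 5.83, 6.18 and 5.78 in lung, 7.07, 7.05 and 6.83 in liver and 8.14, 8.35, 7.87 and 6.11 in parental arrays. The single overlapping array was parental 4, which differed from the mean of parental arrays 1 to 3 by -2.004 in this row and lay within the lung range. Row 9 (7947372) read 5.63, 7.65 and 5.56 in lung, 7.44, 7.23 and 7.39 in liver and 8.66, 8.80, 8.30 and 7.52 in parental arrays. Lung array 2 stood above the liver arrays in this row and above parental array 4, and the spread of the lung arrays was wide (SD 1.19).

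Rows 10 and 11 did not share the fall. Row 10 (7947373) read 8.94, 8.93 and 9.11 in lung, 9.21, 8.88 and 8.87 in liver and 8.76, 8.75, 8.98 and 8.93 in parental arrays, a lung difference of 0.14 (SE 0.12). Row 11 (7947374) read 8.63, 8.35 and 8.52 in lung, 8.92, 8.75 and 8.73 in liver and 8.81, 8.67, 8.91 and 8.40 in parental arrays, a lung difference of -0.20 (SE 0.14). Both rows overlapped between derivatives and parental cells, and they are the last in identifier order. The table carries no detection call or background level, so whether the lowest lung values lie above background is not known.

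**Figure D2:**
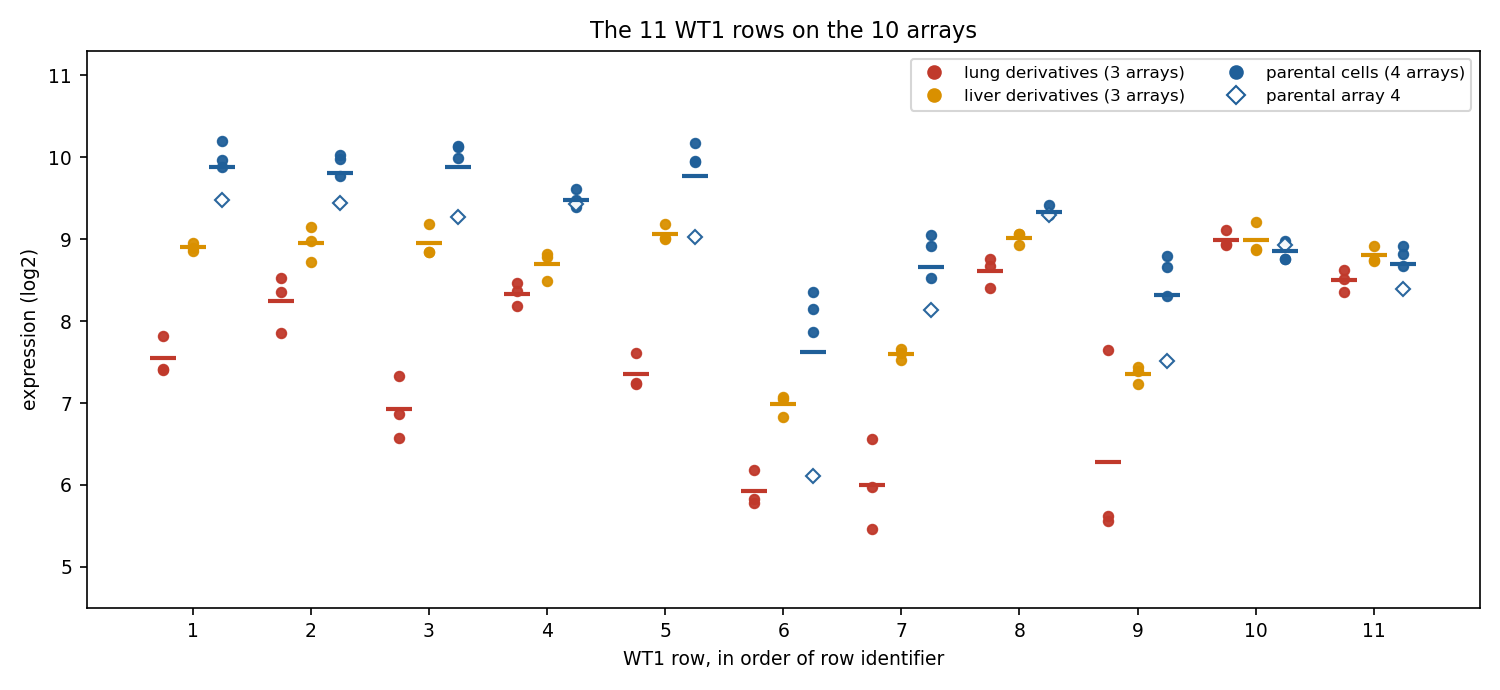
Log2 expression of each WT1 row (horizontal axis, numbered in order of row identifier) on every array, with lung, liver and parental arrays from left to right within a row, the group mean as a bar and parental array 4 as an open diamond. In rows 1 to 9 the lung means lie lowest, in rows 10 and 11 each derivative overlaps with parental cells, and parental array 4 lies below the other parental arrays in most rows.

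In lung against parental cells 9 of the 11 rows passed an adjusted p under 0.05 in the limma fit over all rows, all as lower. Of all rows, 7.99% passed as lower. In 7 of the 11 rows every lung array lay below every parental array, which held in 14.3% of all rows. The median lung difference of the WT1 rows was -1.69, beside -0.03 for all rows. These counts describe the fall for which the gene was picked. Without parental array 4 the count was again 9, at 16.1% of all rows lower. In a fit of the 2 groups alone it was 7, and rows 6 and 9 did not pass (limma adjusted p = 0.100 and 0.0814). With a term for the array set, a split seen in these data (parental array 4 and the lung arrays against the other arrays), which compares lung derivatives with parental array 4 alone, a single array assumed to vary like the other groups, 5 of the 11 rows passed, rows 1, 3, 4, 5 and 7, at 0.371% of all rows lower. Row 6 differed from that single array by -0.18 and row 9 by -1.24.

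**Figure D3:**
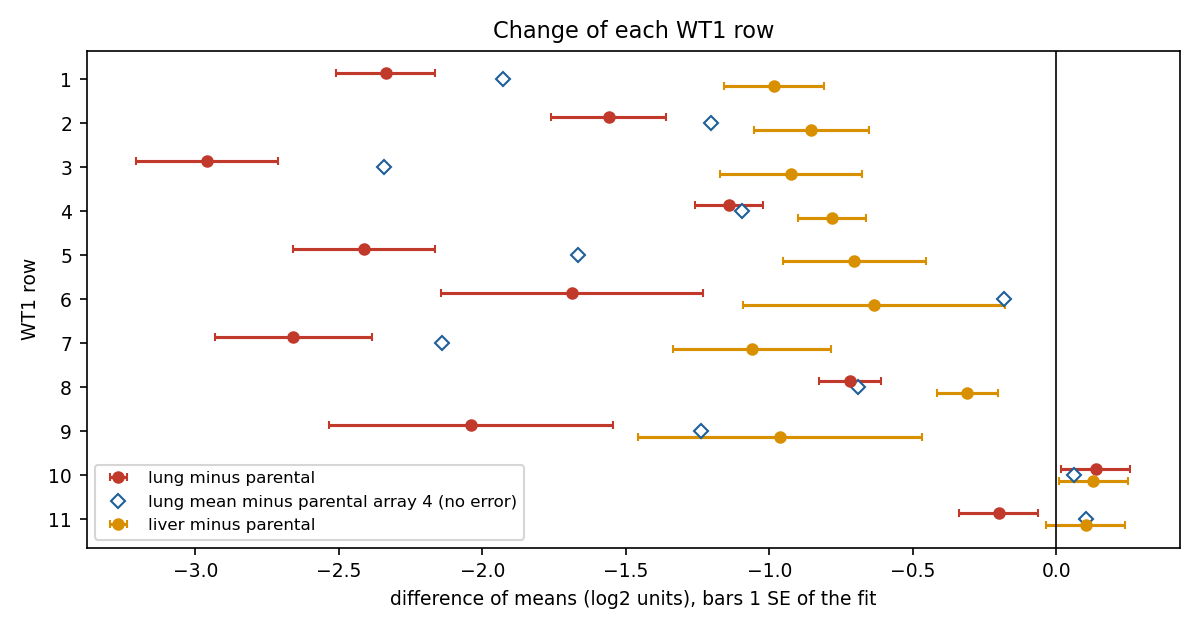
Difference of group means in log2 units (horizontal axis) for each WT1 row, with bars of 1 SE of the fit, for lung and liver derivatives against all parental arrays, and the lung mean against parental array 4 alone as open diamonds with no error. Lung differences run from -2.96 in row 3 to 0.14 in row 10, and liver differences from -1.06 in row 7 to 0.13 in row 10.

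The liver derivatives lay between the other groups in most rows. In 6 of the 11 rows (1, 2, 3, 4, 7 and 8) every lung array lay below every liver array and every liver array below every parental array, an order found in 0.623% of all rows. That order takes in the lung values by which WT1 was picked, so the count is a description. Rows 1 and 4 passed the limma test in liver against parental cells, with differences of -0.98 (SE 0.17, adjusted p = 0.0203) and -0.78 (SE 0.12, adjusted p = 0.00902). These are 2 of 11 rows, beside 1.04% of all rows called lower. The other rows did not pass, with limma adjusted p-values from 0.0711 in row 2 to 0.839 in row 11. In 7 rows every liver array lay below every parental array, beside 7.56% of all rows. The median liver difference of the WT1 rows was -0.78, beside 0.01 for all rows.

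Parental array 4 weighed on this comparison. It was the lowest parental array in 9 of the 11 WT1 rows, as in 37.8% of all rows, and lay below every liver array in 2 of them, as in 39.3% of all rows. Without it, 6 WT1 rows passed in liver derivatives, rows 1 to 6, at 1.21% of all rows lower. The liver difference of row 5 was then -0.95 (SE 0.13, limma adjusted p = 0.00856) and that of row 6 -1.14 (SE 0.16, limma adjusted p = 0.00897). Without any 1 of liver arrays 1, 2 or 3 or parental arrays 2 or 3, a single row passed.

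Lung and liver derivatives were also set against each other, again as a description, since the lung arrays are those on which WT1 was picked. The lung arrays were lower in 10 of 11 rows and separate from the liver arrays in 9 rows, beside 24.2% of all rows. Rows 1, 3, 5, 7 and 8 passed the limma test, with differences of -1.35, -2.04, -1.71, -1.60 and -0.41. Among all rows 7.61% passed as lower. Row 8 did not pass with array medians centred, under quantile normalization or in a fit of the 2 groups alone (limma adjusted p = 0.0742, 0.0760 and 0.0756). The count rested on single liver arrays: it was 2 without liver array 1 and 0 without liver array 2 or liver array 3, where 6 and 7 rows had an unadjusted limma p under 0.05. Once the array set entered the fit 0 rows passed (limma; 4 at an unadjusted p under 0.05), where 0.0632% of all rows passed in either direction, and the difference of the mean of rows was -0.33.

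The rows were then compared with one another. A uniform change of a gene need not give one difference in all its rows, because array signals can be compressed near background or saturation, which was not tested here. The diffSplice test also pools the spread over the rows of a gene, and on simulated data with unequal row spreads it called too many unchanged genes, so its counts and p-values are to be read with the fit by each row's own spread. In lung derivatives, by limma's diffSplice, 6 of the 11 rows had a change that differed from that of the other 10, against 10.9% of all rows of genes with at least 2 rows. WT1 was picked by its lung values, while such shares cover genes that were not. The row comparisons that use lung arrays are therefore a description. Rows 3, 5 and 7 fell further than the rest, by -1.50, -0.90 and -1.17. Rows 8, 10 and 11 lay above the rest, by 0.97, 1.91 and 1.54. With each row judged by its own spread, row 1 (-0.81, SE 0.12) joined them and 7 rows differed, against 5.51% of all such rows. As a whole gene WT1 passed the diffSplice F test in this comparison, as did 61.8% of 4340 genes, and it stood at place 139 by p-value. That share may be too high, given the excess of calls on simulated data. In liver derivatives 0 of the 11 rows differed from the rest, beside 0.911% of all such rows by diffSplice and 0.261% with own spreads, although 2 and 3 rows had an unadjusted p under 0.05. The gene as a whole did not pass in liver derivatives (diffSplice adjusted p = 0.31), as 4.88% of genes did. It passed when parental array 4 was left out (diffSplice adjusted p = 0.00159). Between lung and liver derivatives 2 rows differed from the rest by diffSplice (13.7% of all such rows) and 4 with own spreads (9.52%), and 68.8% of genes passed the F test.

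WT1-AS, listed on the array under its older symbol WIT1, had 5 rows and changed by less. Its mean of rows was 6.60, 6.64 and 6.33 on the lung arrays, 6.92, 6.88 and 6.83 on the liver arrays and 7.09, 6.73, 7.05 and 6.55 on the parental arrays. Lung and parental arrays overlapped, and the difference of -0.33 (SE 0.13, limma adjusted p = 0.0708) was not called. Without parental array 4 the lung difference was -0.44 and was called (limma adjusted p = 0.0104), as it was with dim rows left out (-0.49, limma adjusted p = 0.00418). Against parental array 4 alone it was -0.03. The liver difference of 0.02 (SE 0.13, limma adjusted p = 0.965) was not called either. Of its rows 1, the last, was lower in lung derivatives, with 7.09, 7.21 and 7.09 on the lung arrays, 7.71, 8.02 and 7.90 on the liver arrays and 7.98, 7.69, 8.12 and 7.98 on the parental arrays (-0.81, SE 0.12, limma adjusted p = 0.00671). The lung arrays were separate from both other groups in that row. Whether a WT1 or WT1-AS probe also takes up RNA of the opposite strand was not tested.

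The neighbours of WT1 on chromosome 11 differed by less than WT1. Of the 5 measured genes on each side, 1 was higher and 2 were lower in lung derivatives, and 1 was higher and 0 lower in liver derivatives (limma; 0 lower also at an unadjusted p under 0.05), beside 30.1% and 7.83% of all gene means called in either direction. PAX6, an eye and brain transcription factor gene that is lost together with WT1 in WAGR syndrome, was higher in both. Its mean of rows was 7.38, 7.54 and 8.07 on the lung arrays, 7.79, 7.63 and 7.73 on the liver arrays and 7.16, 7.06, 7.004 and 7.27 on the parental arrays. All derivative arrays lay above all parental arrays, by 0.55 in lung (SE 0.14, limma adjusted p = 0.0148) and 0.59 in liver derivatives (SE 0.14, limma adjusted p = 0.0212). Of the 18 rows of PAX6, 4 were called in lung and 1 in liver derivatives. Against parental array 4 the lung difference was 0.40 and was not called (limma adjusted p = 0.27), and the liver call was lost without any 1 of liver arrays 1 to 3 or parental arrays 2 or 3 (limma adjusted p from 0.0549 to 0.0975). The lower genes in lung were EIF3M, a translation initiation factor subunit (-0.19, SE 0.06), and QSER1 (-0.30, SE 0.08), at -0.08 and -0.29 against parental array 4, where neither was called. Against all parental arrays 0 of the 12 rows of EIF3M and 2 of the 14 rows of QSER1 were called in lung derivatives. The EIF3M call was lost without any 1 of parental arrays 1 to 3 or lung arrays 1 or 2, and the QSER1 call without parental array 1 or 2 or lung array 3. Under quantile normalization neither was called (limma adjusted p = 0.0665 for EIF3M and 0.0521 for QSER1), and EIF3M was not with array medians centred (limma adjusted p = 0.0895) or in a fit of the 2 groups alone (limma adjusted p = 0.0926). RCN1, the nearest measured gene on the PAX6 side, differed by -0.23 (SE 0.10, limma adjusted p = 0.112) in lung and 0.26 (SE 0.10, limma adjusted p = 0.206) in liver derivatives. Without parental array 4 the lung difference of RCN1 was -0.32 and was called (limma adjusted p = 0.0133), so that 3 neighbours were lower. Against parental array 4 alone PRRG4 was called higher in lung derivatives (0.76, limma adjusted p = 0.0123).

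**Figure D4:**
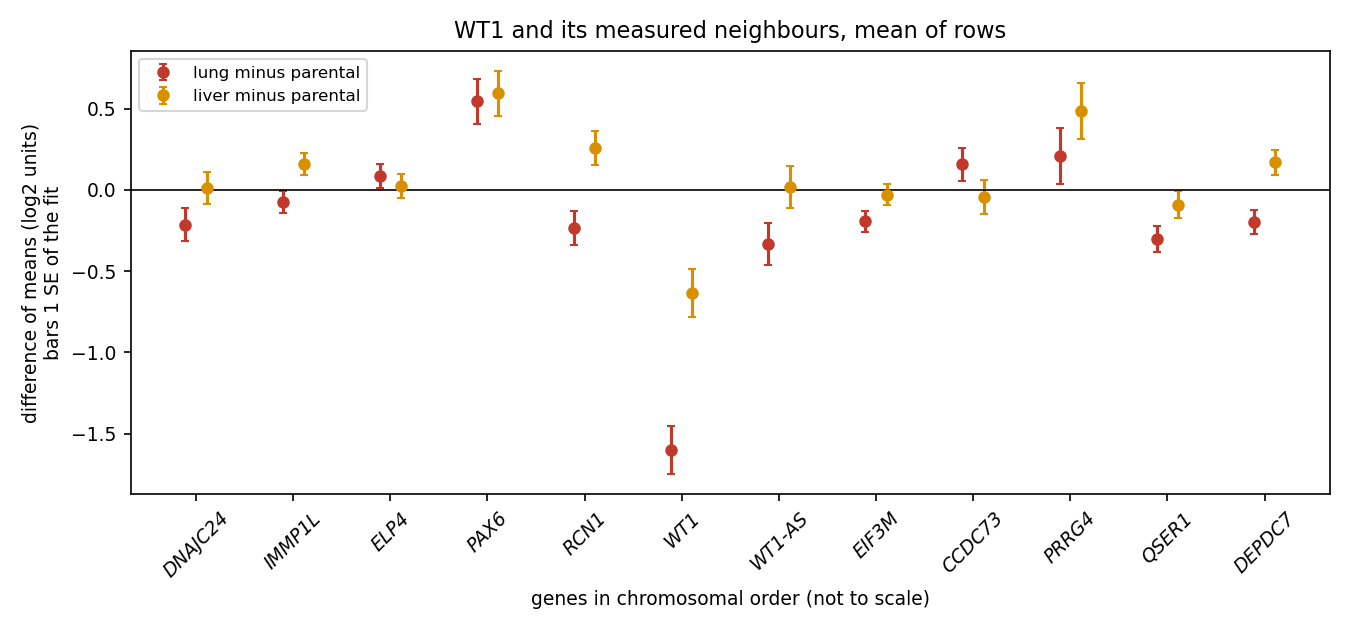
Difference of the mean of rows in log2 units, with bars of 1 SE of the fit, for WT1, WT1-AS and the 5 nearest measured genes on each side, in chromosomal order and not to scale, for lung and liver derivatives against parental cells. WT1 is at -1.60 in lung and -0.64 in liver derivatives, while the 10 neighbours lie between -0.30 and 0.59.

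Among genes reported as targets or partners of WT1, IGF2 differed most, and it was higher in both derivatives. Of 12 such genes on a list drawn up with earlier results of these data known, 11 are analysed here. In lung derivatives 2 were higher (IGF2 and CDKN1C) and 4 lower (VDR, STIM1, KIRREL1 and RSPO1), and the list median was -0.18 beside -0.01 for all gene means. In liver derivatives IGF2 was higher and KIRREL1 lower, with a list median of 0.00 beside 0.01. The lung share of 6 of 11 stands beside 30.1% of all gene means called, and the liver share of 2 of 11 beside 7.83%. Against parental array 4 alone only IGF2 of the 11 was called in lung derivatives, beside 5.75% of all gene means. Without parental array 4, 2 were higher and 5 lower in lung derivatives (41.4% of all gene means called), and 2 higher and 2 lower in liver derivatives (8.95%).

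IGF2 encodes an imprinted fetal growth factor whose promoters WT1 can repress in reporter assays. It had 3 rows, and its mean was 8.83, 8.94 and 9.01 on the lung arrays, 8.36, 8.30 and 8.29 on the liver arrays and 7.66, 7.74, 7.93 and 7.77 on the parental arrays. The 3 groups were separate and in the reverse order of WT1. IGF2 was 2.22-fold higher in lung derivatives than in parental cells (1.15, SE 0.07, limma adjusted p = 4.73e-06) and 1.45-fold higher in liver derivatives (0.54, SE 0.07, limma adjusted p = 0.000771), with 2 of its 3 rows called in each. Parental array 4 did not stand apart here, and the lung mean lay 1.15 above it.

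KIRREL1, an adhesion protein of the podocyte slit diaphragm, had a mean of rows of 8.65, 8.70 and 8.69 on the lung arrays, 8.76, 8.80 and 8.597 on the liver arrays and 9.06, 9.16, 9.18 and 8.95 on the parental arrays. Both derivatives lay below all parental arrays, by -0.41 in lung (SE 0.07, limma adjusted p = 0.00343; 12 of 22 rows called) and -0.37 in liver (SE 0.07, limma adjusted p = 0.00941; 3 of 22 rows). The liver call was lost without liver array 3 (limma adjusted p = 0.0573), and against parental array 4 the lung difference was -0.27 (limma adjusted p = 0.123). VDR, the vitamin D receptor gene, was lower in lung derivatives (-0.60, SE 0.12, limma adjusted p = 0.00506) but by -0.23 against parental array 4, which itself lay 0.50 below the other parental arrays in that gene. STIM1, a calcium sensor of the endoplasmic reticulum, and RSPO1, a secreted enhancer of Wnt signalling, differed by -0.24 and -0.31 in lung derivatives, calls that were both lost without parental array 1. The STIM1 call was also lost without parental array 2 or lung array 1 and under quantile normalization or in a fit of the 2 groups alone (limma adjusted p = 0.0545 and 0.0565), and the RSPO1 call without lung array 3 or with dim rows left out (limma adjusted p = 0.0679). CDKN1C, an imprinted inhibitor of cyclin-dependent kinases, was higher by 0.33 in lung derivatives, with 0 of its 6 rows called, and by 0.21 against parental array 4. Its liver difference of 0.27 was not called (limma adjusted p = 0.0953). It was called without parental array 4 (0.31, limma adjusted p = 0.0499) and in a fit of the 2 groups alone (limma adjusted p = 0.041).

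Genes of kidney and gonad development gave 1 call in each derivative among 9 measured, beside 30.1% of all gene means called in lung and 7.83% in liver derivatives. PAX2 was also called lower in lung derivatives when parental array 4 was left out. LHX9, a LIM homeobox gene of the early gonad, was higher in lung derivatives (7.07 ± 0.04 in lung and 6.68 ± 0.11 in parental cells, SD, n = 3 and 4; 0.39, SE 0.07, limma adjusted p = 0.0027). PTPRO, a receptor phosphatase of podocytes, was higher in liver derivatives (6.04 ± 0.05 in liver and 5.70 ± 0.13 in parental cells, SD, n = 3 and 4; 0.33, SE 0.08, limma adjusted p = 0.0263). With dim rows left out the lung difference of LHX9 was 0.07 and was not called (limma adjusted p = 0.706), and the liver difference of PTPRO was 0.20 and was not called (limma adjusted p = 0.371). Against parental array 4 the lung difference of LHX9 was 0.24 and was not called either (limma adjusted p = 0.0975). PAX2, a kidney transcription factor gene that regulates WT1 and is regulated by it, differed by -0.18 in lung (SE 0.08, limma adjusted p = 0.113) and -0.03 in liver derivatives (SE 0.08, limma adjusted p = 0.895). The medians of the list were 0.00 in lung and 0.04 in liver derivatives, beside -0.01 and 0.01 for all gene means. PAX2 also stands on the list of targets and partners. The PTPRO call was lost without parental array 1 or any 1 of the liver arrays (limma adjusted p from 0.0709 to 0.12), and with an intensity trend (limma adjusted p = 0.0511).

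Markers of other cell types were read in the same arrays. In lung derivatives 3 of 6 leukocyte genes (PTPRC, CD3D and LYZ) and 2 of 5 lung epithelial genes were higher, 1 of 5 stromal genes was higher and 1 lower, and 0 of 5 endothelial and 0 of 6 hepatocyte genes were called (limma; 1 and 2 at an unadjusted p under 0.05), beside 30.1% of all gene means. Leaving out parental array 4 made it 5 of 6 leukocyte genes, beside 41.4% of all gene means called in either direction. Against that array alone the median lung difference was 0.14 for the leukocyte and 0.02 for the lung epithelial genes. Against all parental arrays these medians were 0.19 and 0.17. The leukocyte mean level lay between 6.59 and 6.65 on the lung arrays, between 6.29 and 6.33 on the liver arrays and between 6.08 and 6.31 on the parental arrays. LYZ differed most, by 1.64 in lung derivatives with 6 of its 8 rows called. CD3D differed by 0.45, with 1 of its 8 rows called. PTPRC was low throughout, at 5.23 in lung and 5.04 in parental arrays, with 1 of its 37 rows called. In liver derivatives LYZ was higher, LUM was lower and no other leukocyte, lung epithelial, stromal, endothelial or hepatocyte gene was called, beside 7.83% of all gene means. Of 7 podocyte and mesothelium genes 3 had rows, and of these PDPN was higher in lung derivatives, while KIRREL1 and PTPRO are described above. The part of other cells in the WT1 values was not tested.

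The genes with the profile nearest to that of WT1 were ARHGAP22, ITPR2, LGR5, PRDM16 and ROR1. Likeness was measured over the 10 arrays as the root mean square difference between mean-of-rows profiles, each centred on its own mean, among 3930 other genes with at least 4 rows. The differences were 0.23, 0.24, 0.27, 0.28 and 0.31, on a scale where the WT1 profile itself has a root mean square of 0.69. In all 5 genes every lung array lay below every liver array and every liver array below every parental array, as the measure favours. ITPR2, an inositol trisphosphate receptor, averaged 10.04 in lung, 10.76 in liver and 11.23 in parental arrays. LGR5, the R-spondin receptor of crypt stem cells, averaged 8.34 in lung, 8.80 in liver and 9.61 in parental arrays. ROR1, a receptor of the Wnt5a ligand, differed from WT1 on parental array 4, where it read 8.62 beside 8.499 to 8.65 on the other parental arrays. The lung differences of the 5 genes ran from -0.97 in PRDM16 to -1.42 in ROR1, all smaller than the -1.60 of WT1.

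**Figure D5:**
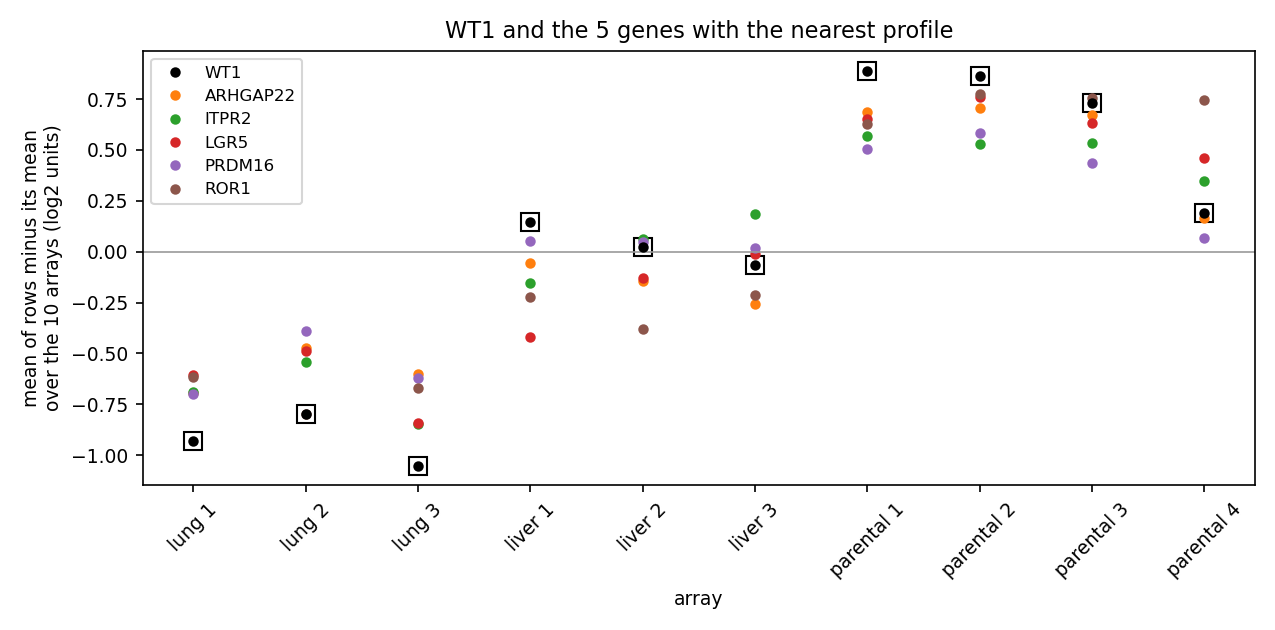
Mean-of-rows profile of WT1 (framed black points) and of the 5 nearest genes on each array, in log2 units from the gene's own mean over the 10 arrays. All 6 genes are lowest on the lung arrays and highest on the parental arrays. WT1 lies outside the other 5 on lung arrays 1 and 3 and level with ROR1 on lung array 2.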

How the data were processed

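RNA of SW620 cells and derivatives was read on Affymetrix HG1.0ST arrays, as the labels' protocols say. The authors deposited log2 values, for which the submitters' processing notes name RMA and oligo, with versions, summary level and genome build not given in the sources used here. The table has 65535 rows, which may be only part of the array. Rows with a listed gene (56949) were fitted with limma 3.58.1 (R 4.3.3), 1 coefficient per group over all 10 arrays and no covariate, two-sided, with Benjamini-Hochberg adjustment over all rows, and called at an adjusted p under 0.05. The same fit on the mean of rows covered 4713 genes. Differences among rows of a gene were tested with limma's diffSplice, and each row was also fitted minus the mean of the other rows of its gene, an alternative chosen after seeing the data. The fits were tested on simulated data, where diffSplice called too many unchanged genes. Symbols were updated through a RefSeq gene table of GRCh38.p14, which also gave the order of neighbours. RMA usually brings arrays to a common distribution, which would hide a change of total RNA, but the medians of the rows given here still differ between arrays. Near-identical sequences elsewhere could share probes.

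Named genes are all WT1 rows, 5 measured neighbours on each side, WT1-AS, members of 2 gene lists, cell type markers and the 5 nearest profiles. Members and lists were chosen with earlier results of these data known. Same-numbered replicates of different groups did not deviate together (correlations from -0.12 to 0.04 over 9 pairs), so replicate numbers were not used as pairs. Alternatives were other scalings, a filter on dim rows, other variance settings, single arrays left out, the array set and the replicate number as terms. The array set is a split seen in the values of these arrays, not in the labels. The number of arrays limits the precision.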

Additional observations from a re-analysis of the deposited data

Results flagged for a closer look

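Parental arrays stood apart in 3 of the 50 named values tested, by the gap of the extreme array to its nearest neighbour over the range of the 4. The ratio was 0.836 in WT1 row 3, where parental array 4 was low, 0.982 in WT1 row 8, where parental array 3 was high within a narrow range, and 0.942 in ARHGAP22, where array 4 was low. Chance flags about 1 in 20 such groups when they are independent. The 50 values were read on the same 4 parental arrays and are not independent, so whether the flags go beyond chance was not tested.

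Among all gene means 19.9% were called in lung against liver derivatives (limma), and among all rows 7.61% were called as lower. Lung and liver derivatives differed from each other (limma) in 19 of the 50 values examined, rows and means of rows together, given below. WT1 and the nearest profiles were picked for such values, so theirs are a description. WT1 differed by -0.96 as the mean of rows and by -1.35, -2.04, -1.71, -1.60 and -0.41 in rows 1, 3, 5, 7 and 8. The last WT1-AS row differed by -0.75. Among the neighbours, IMMP1L, RCN1 and DEPDC7 differed by -0.23, -0.49 and -0.36. Among the listed genes IGF2 and LHX9 were higher in lung than in liver by 0.61 and 0.35, and VDR and RSPO1 differed by -0.46 and -0.33. The nearest profiles ARHGAP22, ITPR2, LGR5, PRDM16 and ROR1 differed by -0.44, -0.73, -0.46, -0.61 and -0.42. All lung arrays lie in the array set with parental array 4, and once that set entered the fit 0 WT1 rows differed (limma; 4 at an unadjusted p under 0.05), and neither IMMP1L, RCN1, DEPDC7, IGF2, VDR, RSPO1 nor LHX9 was called (limma adjusted p = 0.176 for IGF2). The VDR call was lost without any single 1 of the 6 arrays, the RSPO1 and IMMP1L calls without 5 of them each, the LHX9 and RCN1 calls without 3 each and the DEPDC7 call without 2.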

How the results depend on the processing

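Under the scalings, the dim-row filter, the variance settings and the 2-group fits, the WT1 means of rows kept their direction and side of the threshold, and the counts of called rows stayed within 1.5 times. Once the array set entered the fit, the WT1 rows called were 5 in lung against parental cells, 6 in liver against parental cells and 0 in lung against liver. The lung against liver mean of rows was then -0.33, and the diffSplice adjusted p was 0.00159 in liver against parental cells and 0.293 in lung against liver. The replicate block gave 5 liver rows and a diffSplice adjusted p of 0.00101 in liver, and left the calls of the WT1 means as they were. In lung against liver it gave 6 called rows, with rows 2 and 6 gained and row 8 lost. The median of rows gave -0.42 in liver (limma adjusted p = 0.066). Leaving out 1 array gave 7 to 9, 1 to 6 and 0 to 5 called rows in lung against parental, liver against parental and lung against liver. The means of rows ran from -1.76 to -1.52, from -0.79 to -0.56 and from -1.03 to -0.90, and the diffSplice adjusted p from 1.02e-16 to 4.94e-08, from 0.00159 to 1 and from 8.76e-05 to 0.00703. Among other genes, WNT4 turned to 0.23 in lung without dim rows, and VDR to 0.041 and ARHGAP22 to 0.0862 in lung against liver when the array set entered. The cause of these changes was not tested.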
